A study of Mus musculus with 12 samples.

Results

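CIS and the SOCS proteins are a family of 8 intracellular inhibitors of cytokine signaling, encoded in the mouse by Cish and by Socs1 to Socs7. All 8 genes were found in the deposited table of 51826 mouse genes by matching its Ensembl identifiers to gene symbols, and all 8 were among the 15038 genes that passed the filter on low counts. When a cytokine such as interleukin 7 (IL7) binds its receptor, JAK kinases phosphorylate STAT transcription factors, which switch on target genes. Cish, Socs1, Socs2 and Socs3 are known as such targets, and their proteins bind the receptor or the JAK kinase and dampen the signal, which closes a negative feedback loop. Socs4 to Socs7 encode larger relatives that are less tied to cytokine induction. Each protein has an SH2 domain, which binds phosphorylated tyrosines, and a SOCS box, which recruits a ubiquitin ligase.

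RNA was measured in 12 lines of pro-/pre-B cells, B lymphocyte precursors from the bone marrow of 2 C57BL/6 mice. Marrow of each mouse was cultured for 7 days with IL7 and then transduced with retroviral vectors, either the empty vector pMIG (EV, 3 lines per mouse) or one carrying BCR-ABL1 (3 lines per mouse), a fusion tyrosine kinase that drives leukemia. At 48 hours BCR-ABL1 cultures were deprived of IL7 for 1 week. EV cultures remained in IL7, and a sort for the vector's GFP is stated for them alone. BCR-ABL1 and the absence of IL7 therefore cannot be told apart in these lines. The 6 lines of a condition came from 2 mice, so their spread mixes differences between cultures of a mouse with differences between the 2 animals. It is not the spread of 6 independent animals. By the paper's account, the triplicates stem from 3 independent experiments. Lines are named by condition, mouse number and letter, as EV line 2C.

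Between 34791011 and 66011225 counts were assigned to genes in a line. In bulk RNA, fewer cells of a type and less RNA per cell cannot be told apart. All 10 B lineage markers examined were expressed, and their summed level was 2773 to 5227 CPM (counts relative to a library size scaled by the TMM method) in EV lines, compared with 2825 to 3598 CPM after BCR-ABL1. No gene of the myeloid, erythroid, mast and basophil or stromal marker lists reached 1 CPM in any line. In the T and NK list only Lck and Klrb1c did, with Lck at 61.4 CPM or more in every line. The plasma cell list had sums of 55.4 to 117 CPM in EV lines, below the 124 to 155 CPM of the BCR-ABL1 lines. Xbp1 made up most of these sums (45.9 to 64.7 CPM and 97.1 to 125 CPM), whereas Prdm1 of the same list went the other way, from 3.81 to 30.5 CPM in EV lines to 0.828 to 1.25 CPM. EV line 2C, which stood apart from the other EV lines for several genes described here, had the lowest sum of both the B lineage and the plasma cell lists, at 2773 and 55.4 CPM. Erg, whose level was 46.3 to 117 CPM in BCR-ABL1 lines, was at most 0.358 CPM in any EV line and had no count in EV line 2C. The part of the plasma cell genes in the results was not tested.

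RefSeq promoter windows on GRCm38.p6 were at hand for 4 of the 8 genes, Cish, Socs1, Socs3 and Socs4. Each spans 300 bases, of which 250 lie before the annotated start and 50 from the start on. The 3 windows printed are those of the cytokine-induced members, whose levels differed between the conditions, and capitals mark matches to TTCNNNGAA, the palindromic core of the element that STAT dimers bind, which reads the same on both strands. The Cish window lies at chr9:107296409-107296708 on the plus strand, the Socs1 window at chr16:10785487-10785786 on the minus strand and the Socs3 window at chr11:117969317-117969616 on the minus strand.
Cish: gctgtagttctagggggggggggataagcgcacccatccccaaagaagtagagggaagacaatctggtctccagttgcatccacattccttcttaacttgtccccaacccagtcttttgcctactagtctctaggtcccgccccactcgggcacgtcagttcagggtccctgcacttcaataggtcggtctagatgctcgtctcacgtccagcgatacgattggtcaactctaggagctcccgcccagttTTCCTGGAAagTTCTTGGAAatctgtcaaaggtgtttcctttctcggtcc
Socs1: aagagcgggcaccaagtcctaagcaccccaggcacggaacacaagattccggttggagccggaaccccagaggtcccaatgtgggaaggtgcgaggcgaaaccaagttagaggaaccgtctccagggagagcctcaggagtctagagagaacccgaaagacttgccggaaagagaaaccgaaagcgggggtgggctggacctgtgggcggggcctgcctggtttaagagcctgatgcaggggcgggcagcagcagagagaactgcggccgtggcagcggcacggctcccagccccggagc
Socs3: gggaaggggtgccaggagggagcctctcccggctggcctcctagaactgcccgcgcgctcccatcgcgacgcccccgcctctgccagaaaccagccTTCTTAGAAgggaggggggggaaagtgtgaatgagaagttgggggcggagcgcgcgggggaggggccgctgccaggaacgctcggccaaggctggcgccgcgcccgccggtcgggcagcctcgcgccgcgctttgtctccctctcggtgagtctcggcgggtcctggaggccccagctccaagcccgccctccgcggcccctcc
The Cish window held 2 matches, which begin at the annotated start and 11 bases after it. The Socs3 window held 1 match, beginning 154 bases before the start, and the Socs1 and Socs4 windows held none. Of all 32851 promoter windows of this length, 8.30% held at least 1 match and 0.457% at least 2. A match is a string of letters and does not show binding, and its absence concerns only these windows. The Cish window lies within the longer gene that GENCODE M21 annotates, from 107296026 to 107302784 on chromosome 9, and the Socs3 window likewise lies within its longer GENCODE gene, so that both RefSeq starts are downstream of the first annotated base of the gene.

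BCR-ABL1 lines were first compared with EV lines to see which inhibitors differed in the transformed cells. Cish and Socs3 were about 9.15-fold and 9.12-fold higher in BCR-ABL1 lines, Socs1 was 3.21-fold higher and Socs5 was 3.41-fold lower. These 4 genes passed edgeR's glmTreat, which asks on a quasi-likelihood fit whether a change exceeds 1.5-fold, at a Benjamini-Hochberg adjusted p under 0.05 over all tested genes. Socs2 had the highest CPM of the family in BCR-ABL1 lines and a fold change of 2.84, but did not pass, and its EV lines ranged over 14.1-fold. So 3 of the 8 genes were called higher and 1 lower, whereas 5.99% of all tested genes were called higher and 6.49% lower. Over the 8 genes the median log2 fold change was 0.87, and it was -0.02 over all tested genes together. Without EV line 2C the counts were 4 higher, with Socs2 in addition, and 1 lower, against 8.83% and 9.35% of all genes. With mouse as replicate block they were also 4 higher and 1 lower, against 7.49% and 7.18%. In 5 of the 8 genes the 6 lines of a condition did not overlap the 6 lines of the other, namely Cish, Socs3 and Socs6 (higher in BCR-ABL1 lines) and Socs5 and Socs7 (lower), and such separation was found in 25.6% of all tested genes.

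**Figure D1:**
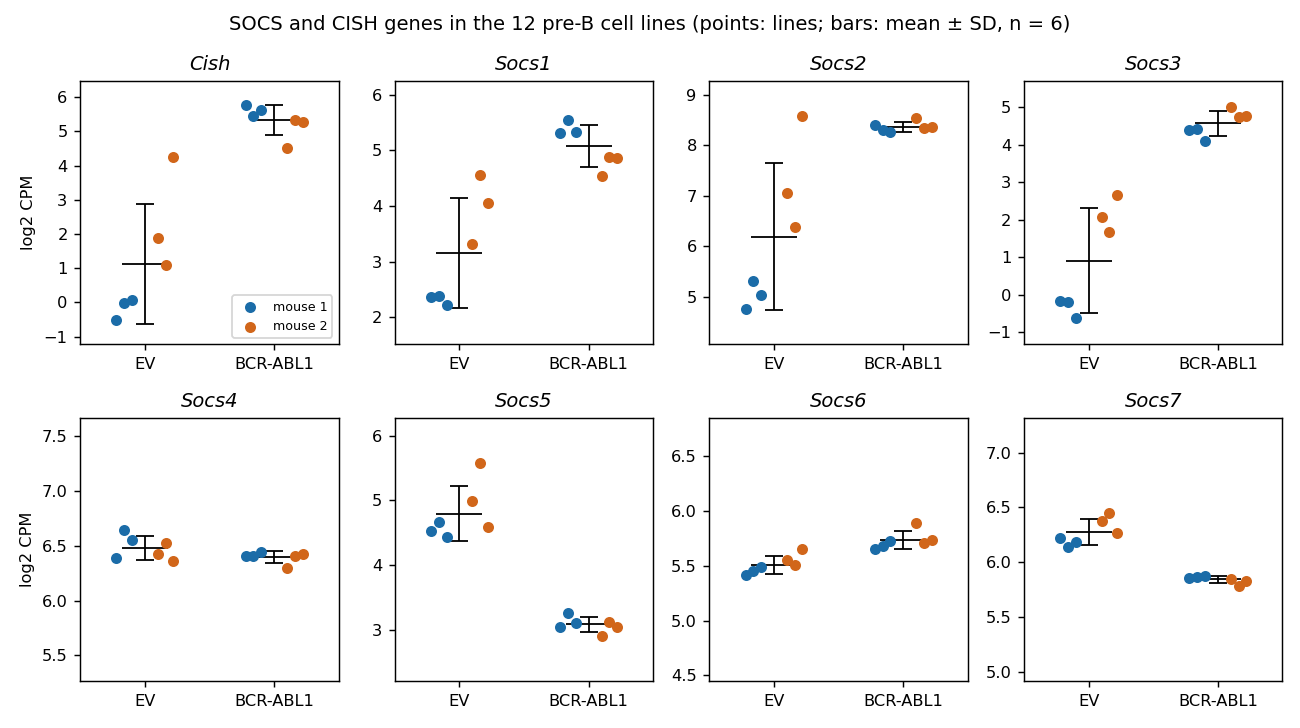
Level of the 8 genes as log2 CPM (prior count 2) in each of the 12 lines, with EV lines on the left and BCR-ABL1 lines on the right of each panel, points coloured by mouse and bars for the mean ± SD over 6 lines. EV lines of mouse 2 lie above those of mouse 1 for Cish, Socs1, Socs2 and Socs3, EV line 2C reaches the BCR-ABL1 lines for Socs2, and Socs5 is lower in every BCR-ABL1 line.

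Cish (ENSMUSG00000032578, chromosome 9 of GRCm38, 107296026 to 107302784) encodes CIS, which occupies phosphorylated receptor tails and keeps STAT5 from docking there. Its level in the EV lines of mouse 1 was 0.659, 0.953 and 1.01 CPM, and in those of mouse 2 it was 3.62, 2.09 and 19.0 CPM. The BCR-ABL1 lines had 54.6, 44.0 and 49.8 CPM in mouse 1 and 22.8, 40.2 and 38.9 CPM in mouse 2. Every BCR-ABL1 line was thus above every EV line, and EV line 2C came closest, next to BCR-ABL1 line 2A. Cish rose by 3.19 on the log2 scale (standard error 0.74, adjusted p = 0.0217 by edgeR's glmTreat). Without EV line 2C it was 4.68 with an adjusted p of 4.48e-05. In the other 11 omissions of a line Cish stayed called, with an adjusted p of at most 0.0447. The antisense gene Gm17041 that overlaps Cish had no more than 1 count in any line, and the strand setting of the counting is not given in the sources used here.

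Socs2 (ENSMUSG00000020027, chromosome 10, 95385362 to 95417180) is best known as an inhibitor of growth hormone signaling and is a common STAT5 target. It was at 27.0, 39.5 and 32.9 CPM in the EV lines of mouse 1 and at 133, 83.1 and 379.8 CPM in those of mouse 2. The BCR-ABL1 lines lay close together, at 339, 316 and 305 CPM in mouse 1 and at 369, 323 and 327 CPM in mouse 2. EV line 2C was above all 6 BCR-ABL1 lines, whereas the other 5 EV lines were below all of them. The log2 fold change was 1.51 (standard error 0.60), and the adjusted p of 0.205 missed the threshold. Without EV line 2C it was 2.39 (adjusted p = 0.00210), and with mouse as replicate block 2.02 (adjusted p = 0.0355), both by edgeR's glmTreat. Against no change in place of 1.5-fold, the adjusted p over all 12 lines was 0.0472.

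Socs1 and Socs3 differ from the other members by a kinase inhibitory region with which their proteins block JAK kinases directly. Socs1 (ENSMUSG00000038037, chromosome 16, 10782240 to 10785536) was at 5.14, 5.20 and 4.62 CPM in the EV lines of mouse 1 and at 9.97, 23.4 and 16.6 CPM in those of mouse 2. Its BCR-ABL1 lines had 39.5, 46.6 and 40.1 CPM in mouse 1 and 23.3, 29.5 and 29.2 CPM in mouse 2. The conditions overlapped by a single pair of lines, since EV line 2B and BCR-ABL1 line 2A differed by less than 0.1 CPM. The log2 fold change of 1.68 (standard error 0.43) had an adjusted p of 0.0361 by edgeR's glmTreat. This call was close to the threshold. It was lost on omission of EV line 1A (adjusted p = 0.0619), 1B (0.0676), 1C (0.0629) or 2A (0.0653), or of BCR-ABL1 line 1A (0.0656), 1B (0.0710) or 1C (0.0570), with log2 fold changes of 1.53 to 1.68. With the line number as replicate block the adjusted p was 0.0615, and with mouse as replicate block 0.0194.

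Socs3 (ENSMUSG00000053113, chromosome 11, 117966079 to 117970047), a feedback inhibitor best known from interleukin 6 and G-CSF signaling, was at 0.847, 0.837 and 0.614 CPM in the EV lines of mouse 1 and at 4.20, 3.18 and 6.27 CPM in those of mouse 2. In BCR-ABL1 lines it was at 20.9, 21.2 and 17.1 CPM in mouse 1 and at 31.9, 26.8 and 27.1 CPM in mouse 2. The lowest BCR-ABL1 line was well above the highest EV line, which was again EV line 2C. Socs3 rose by 3.19 on the log2 scale (standard error 0.59, adjusted p = 0.00301 by edgeR's glmTreat). Socs3 stayed called in all 12 omissions of a line and in the lines of each mouse alone.

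Socs5 (ENSMUSG00000037104, chromosome 17, 87107679 to 87137839), whose protein has been described as an inhibitor of interleukin 4 and EGF receptor signaling, was the member called lower by glmTreat. It was at 22.9, 25.5 and 21.7 CPM in the EV lines of mouse 1 and at 31.7, 47.8 and 24.0 CPM in those of mouse 2. All 6 BCR-ABL1 lines were between 7.49 and 9.53 CPM, with a median of 8.43 CPM, and none came near the lowest EV line. The log2 fold change was -1.77 (standard error 0.18, adjusted p = 0.000229 by edgeR's glmTreat), and over the 12 omissions of a line it ranged from -1.84 to -1.58. Socs5 was the member with the lowest adjusted p.

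Socs4, Socs6 and Socs7 had fold changes under 1.5. Socs4 (ENSMUSG00000048379, chromosome 14, 47276931 to 47296102), described as an inhibitor of EGF receptor signaling, was at 82.0 to 99.7 CPM in EV lines (median 89.1) against 78.5 to 87.2 CPM in BCR-ABL1 lines (median 84.9), and the conditions overlapped. Its log2 fold change was -0.09 (standard error 0.05, adjusted p = 0.223 against no change by edgeR's quasi-likelihood test). Socs6 (ENSMUSG00000056153, chromosome 18, 88665224 to 88927481), whose protein binds the receptor KIT, was at 42.6 to 50.1 CPM in EV lines (median 45.2) against 50.3 to 59.2 CPM in BCR-ABL1 lines (median 52.6). The ranges only just failed to meet, and the log2 fold change of 0.22 (standard error 0.05) differed from 0 (adjusted p = 0.00757) though not by 1.5-fold (adjusted p = 1). Socs7 (ENSMUSG00000038485, chromosome 11, 97362551 to 97398542), which has been linked to insulin signaling, was at 70.3 to 87.2 CPM in EV lines (median 75.9) against 55.2 to 58.6 CPM in BCR-ABL1 lines (median 57.7). It was lower in every BCR-ABL1 line, with a log2 fold change of -0.43 (standard error 0.05) that differed from 0 (adjusted p = 0.000140, edgeR) but not by 1.5-fold (adjusted p = 1). Against no change, 48.5% of all tested genes had an adjusted p under 0.05 (22.5% higher and 25.9% lower), and among the 8 genes 5 were higher, 2 were lower and Socs4 was not called.

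The 2 mice allowed the change to be compared between lines of different origin. In lines of mouse 1 the log2 fold changes of Cish, Socs1, Socs2 and Socs3 were 5.81, 3.08, 3.27 and 4.68 (standard errors 0.21, 0.09, 0.17 and 0.18). In lines of mouse 2 they were 2.03, 0.71, 0.77 and 2.65 (standard errors 0.99, 0.37, 0.65 and 0.29). The change was thus smaller in mouse 2 for all 4 cytokine-induced members. The difference, mouse 2 minus mouse 1, was -3.78 for Cish (adjusted p = 0.0155), -2.36 for Socs1 (0.000727), -2.50 for Socs2 (0.0144) and -2.04 for Socs3 (0.00144), by the interaction of mouse and condition in edgeR's quasi-likelihood test. Such an interaction, in either direction, was found in 16.9% of all tested genes, and in this direction in 10.8%. Without EV line 2C the differences of Cish and Socs2 were -2.18 (adjusted p = 0.000949) and -1.61 (0.000247), against 20.5% of all genes in this direction. Socs5 (-0.87, adjusted p = 0.00528) and Socs7 (-0.27, 0.0205) then also differed, whereas with all lines their adjusted p was 0.144 and 0.130 in edgeR. DESeq2 called 5 members with all lines, Socs7 among them (adjusted p = 0.0296). Without EV line 1A the difference of Cish had an adjusted p of 0.0508. When the lines of each mouse were fitted alone against 1.5-fold, all 5 of Cish, Socs1, Socs2, Socs3 and Socs5 were called in mouse 1, and in mouse 2 Socs3 (adjusted p = 0.00478) and Socs5 (0.0113) were called. Background shares were 16.3% higher and 12.2% lower in mouse 1, and 3.99% and 2.65% in mouse 2.

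**Figure D2:**
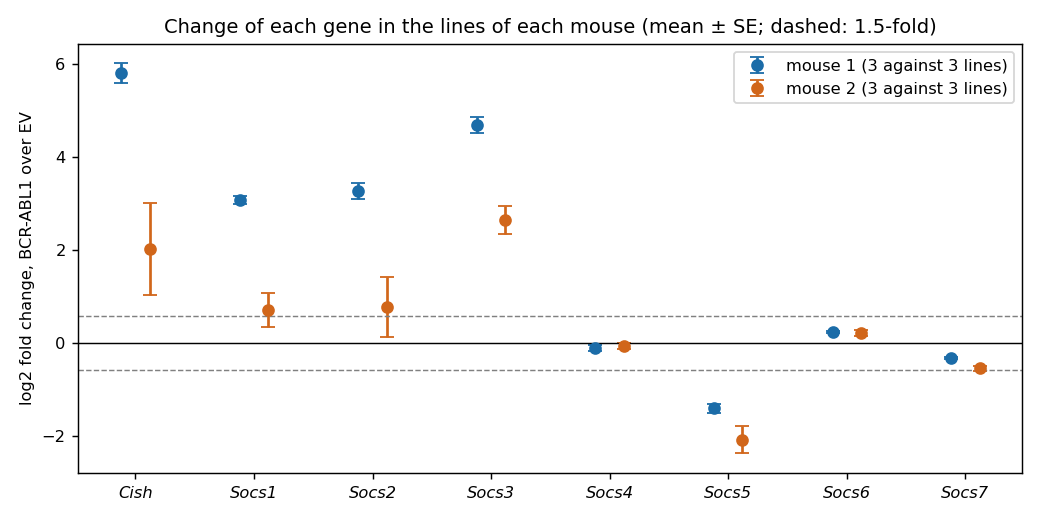
Log2 fold change of BCR-ABL1 over EV lines for each gene, with the lines of mouse 1 and mouse 2 shown separately (3 against 3 lines each) and dashed lines at 1.5-fold. Points are edgeR's estimates, and bars are the standard error of the difference of mean log2 CPM. The change is smaller in mouse 2 for Cish, Socs1, Socs2 and Socs3, and for Socs5 both mice lie below the dashed line.

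The mice were also compared within each condition. EV lines of mouse 2 were higher than EV lines of mouse 1 by 3.24 on the log2 scale for Cish (adjusted p = 0.00616), 1.74 for Socs1 (0.000382), 2.58 for Socs2 (0.00139) and 2.57 for Socs3 (2.33e-05), by edgeR's quasi-likelihood test. These 4 of the 8 genes compare with 15.2% of all tested genes that were higher in the EV lines of mouse 2, and 24.8% that differed in either direction. Without EV line 2C the differences were 1.64, 1.75, 1.70 and 2.25, each with an adjusted p of 0.00166 or less, and 25.3% of all genes were then higher. Socs5 and Socs7 differed by 0.56 and 0.18 with all lines (adjusted p = 0.0641 for both) and by 0.76 and 0.22 without EV line 2C (0.00115 and 0.00861). DESeq2 called both with all lines (adjusted p = 0.0352 and 0.00908), and so 6 of the 8 genes. Among BCR-ABL1 lines 0 of the 8 genes were called between the mice by edgeR, against 5.97% of all genes (3.15% higher and 2.83% lower in mouse 2), and 0 were called by DESeq2. At an unadjusted p under 0.05 there were 2, Socs1, with a log2 difference of -0.62, and Socs3, with one of 0.53. Socs3 was called without EV line 2C (adjusted p = 0.0147), and Socs1 was called without EV line 2A (0.0287) or 2B (0.0428), in edgeR's fit of all groups. Each group in this comparison was 3 cultures of 1 animal, so these comparisons are between the cultures of 2 particular mice.

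**Figure D3:**
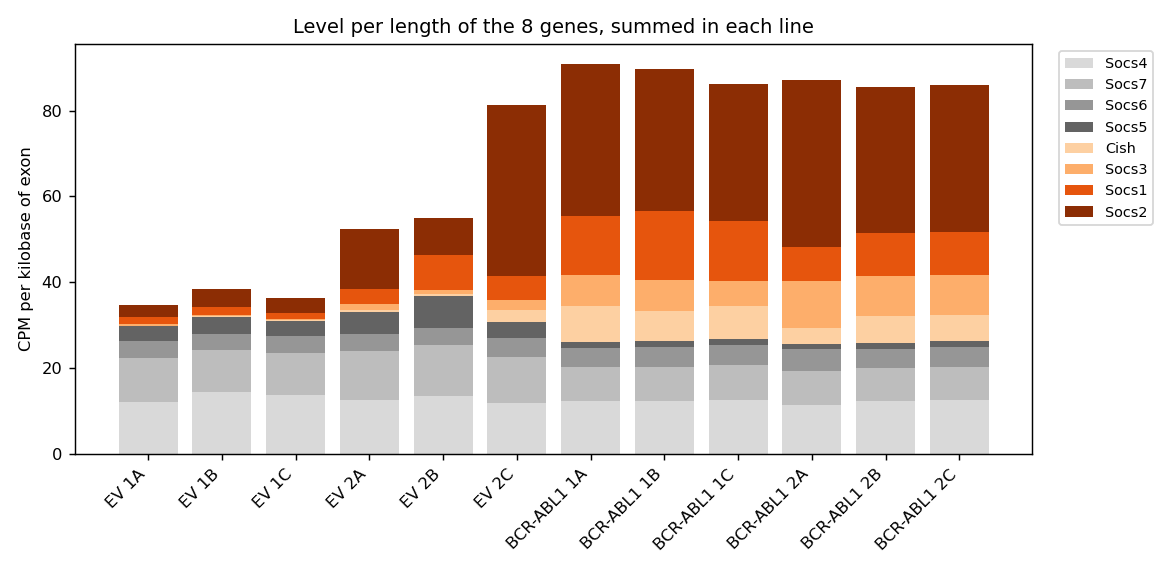
CPM per kilobase of exon of the 8 genes, stacked for each of the 12 lines, with the 4 cytokine-induced members in orange and brown and Socs4 to Socs7 in grey. The sum is 34.8 to 81.4 in EV lines and 85.4 to 91.0 in BCR-ABL1 lines, and Socs2 makes up 49.0% of the bar of EV line 2C.

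Levels of different genes were compared per length, as CPM per kilobase of all annotated exons of a gene. In EV lines Socs4 (13.0 ± 0.988, SD, n = 6), Socs2 (12.2 ± 14.2) and Socs7 (10.7 ± 0.885) had the highest levels per length, and the ranges of these neighbours overlapped. Socs2 was at 39.9 in EV line 2C and at 2.83 to 14.0 in the other EV lines. Socs7 lay above Socs5 (4.51 ± 1.54) in all 6 lines without overlap. Socs6 (4.02 ± 0.234), Socs1 (3.72 ± 2.63), Socs3 (0.920 ± 0.796) and Cish (0.710 ± 1.12) followed, each overlapping the next. In BCR-ABL1 lines Socs2 (34.6 ± 2.36) was above every other member in all 6 lines. Socs4 (12.3 ± 0.443), Socs1 (11.9 ± 3.00), Socs3 (8.35 ± 1.86), Socs7 (7.90 ± 0.172), Cish (6.50 ± 1.71) and Socs6 (4.69 ± 0.274) came next, with overlapping neighbours throughout, and Socs5 (1.32 ± 0.105) was below all others. The order depended on the length used. Per kilobase of the longest transcript, Socs2 came first in EV lines too (27.3 ± 31.9, SD, n = 6, against 13.0 for Socs4), and Socs6 (7.56) came before Socs5 (6.22). In BCR-ABL1 lines Socs2 was then at 77.7, and Cish (8.88), Socs6 (8.81) and Socs7 (8.18) followed each other. By both lengths Cish had the lowest mean in EV lines and Socs5 the lowest in BCR-ABL1 lines.

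Cish, Socs1, Socs2 and Socs3 together made up 29.7% ± 18.7 (SD, n = 6) of the summed level per length of the family in EV lines and 70.1% ± 0.881 (SD, n = 6) in BCR-ABL1 lines. The EV lines ranged from 14.4% to 62.3%, the latter in EV line 2C, and the BCR-ABL1 lines from 69.0% to 71.4%. Each of these 4 members alone had a wider spread of its share among BCR-ABL1 lines (SD 1.88 to 3.22). Socs1 made up 14.9% to 17.9% in mouse 1 and 9.22% to 11.9% in mouse 2, and Socs3 made up 6.85% to 8.16% in mouse 1 and 10.8% to 12.7% in mouse 2. These shares depend on the length used. Per length of all exons, mean Socs2 was 12.2 of a mean family sum of 49.7 in EV lines and 34.6 of 87.6 in BCR-ABL1 lines. Per length of the longest transcript, it was 27.3 of 70.9 in EV lines and 77.7 of 139 in BCR-ABL1 lines. By the longest transcript, the family sum of EV line 2C, 138, lay within the range of the BCR-ABL1 lines, 135 to 144.

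Other genes of the pathway were examined in 4 lists with 45 genes, all of which were tested. By glmTreat, BCR-ABL1 lines had higher levels of 7 and lower levels of 4, and the shares to read these and the following counts against are 5.99% of all tested genes higher and 6.49% lower. In the list of IL7 receptor, JAK and STAT genes 1 of 14 was higher and 2 were lower, with a median log2 fold change of -0.20. Stat4, a STAT best known from interleukin 12 signaling, rose by 7.00 on the log2 scale (standard error 0.41, adjusted p = 3.45e-06 by edgeR). Il7r, which encodes the IL7-binding receptor chain, fell by 1.06 (adjusted p = 0.00328), and Jak3, the kinase of the common gamma chain, by 1.04 (adjusted p = 0.00198), on the same scale. Stat5a and Stat5b, the main STATs downstream of IL7, had log2 fold changes of 0.01 and 0.07 (standard errors 0.09 and 0.07). Those of Stat2, Stat3 and Stat6 were -0.05, -0.13 and -0.47, and those of Jak1, Jak2 and Tyk2 were -0.07, -0.62 and -0.53. All of these had an adjusted p of 0.552 or more by glmTreat. Against no change, edgeR's quasi-likelihood test called Jak2 (adjusted p = 0.000822), Tyk2 (0.000105) and Stat6 (0.000176) lower, where 25.9% of all tested genes were called lower. Jak1, Stat2 and Stat3 had an adjusted p of 0.328 or more in that test.

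Among 13 other inhibitors of cytokine receptor signaling, such as phosphatases, PIAS proteins and CBL ligases, 1 was higher and 1 was lower, which is near those shares, with a median log2 fold change of -0.20. Usp18, an inhibitor of interferon receptor signaling, rose by 3.86 on the log2 scale (adjusted p = 0.00672 by edgeR) from a low level, at most 0.298 CPM in EV lines against 0.602 to 2.59 CPM with BCR-ABL1. Pias3, which encodes an inhibitor of STAT3, fell by 1.19 (adjusted p = 0.00350). The phosphatase gene Ptpn6 had a log2 fold change of -0.88 (adjusted p = 0.0694) and was called without EV line 2C (-0.99, adjusted p = 0.00138). Of the 6 genes listed as SOCS box ligase partners (Elob, Eloc, Cul5, Rnf7, Cul2 and Rbx1) 0 were called by glmTreat in edgeR or by DESeq2. By glmTreat, 0 had an unadjusted p under 0.05. Against no change, edgeR called 4 of them higher, Eloc (adjusted p = 0.00477), Cul5 (0.0221), Rnf7 (0.000962) and Cul2 (0.00228), where 22.5% of all tested genes were called higher. All 6 had positive log2 fold changes, between 0.13 and 0.54.

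Of 12 known STAT5 target genes outside the family, 5 were higher and 1 was lower, with a median log2 fold change of 0.34. Pim1, a survival kinase gene, rose by 3.09 on the log2 scale (adjusted p = 0.000192 by edgeR), Ccnd2, which encodes cyclin D2, by 3.05 (0.0111), Id1, which encodes an inhibitor of E proteins, by 2.18 (0.0295), Osm, the cytokine oncostatin M, by 1.22 (0.0175) and Ccnd3, which encodes cyclin D3, by 0.82 (0.00790). With mouse as replicate block Gfi1, which encodes a transcriptional repressor, was lower in addition (-2.10, adjusted p = 0.00573, against -1.62 and 0.873 without the block). Bcl6, a transcriptional repressor gene that STAT5 is known to hold down, fell by 4.08 (adjusted p = 1.31e-05). EV line 2C had the highest Ccnd2 and Osm of the EV lines, at 170.0 and 8.67 CPM. It also had the lowest Il7r, at 235 CPM against up to 401 CPM, and the lowest Bcl6, at 11.7 CPM. Of the other targets called higher, Ccnd3 was at its lowest EV level in EV line 2C, 519 CPM. Pim1 and Id1, at 158 and 0.685 CPM there, were below the highest EV level of 177 and 0.874 CPM. The lists were not chosen independently of earlier results on these lines.

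**Figure D4:**
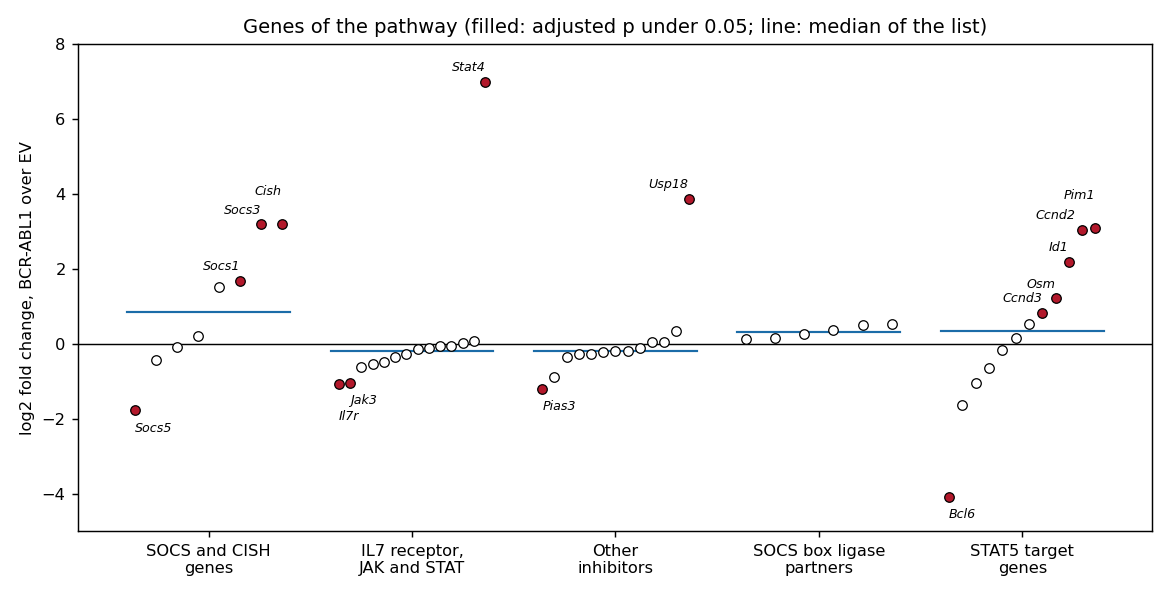
Log2 fold change of BCR-ABL1 over EV lines for the 8 SOCS and CISH genes and for the genes of 4 lists, with filled points for an adjusted p under 0.05 by glmTreat and a line at the median of each group. The family has genes called in both directions, and the list of SOCS box ligase partners has no called gene.

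The genes whose log2 CPM followed a member most closely over the 12 lines were found by Pearson correlation, given here as a description only, because the lines of a condition and mouse lie together. For Cish these were Tpp2 (r = 0.991) and Gm6093 (0.989), and for Socs1 Gimap3 (0.990) and 4930570N18Rik (0.983). For Socs2 they were Atp10a (0.995) and Cd248 (0.991). For Socs3 they were Ipmk (0.997) and 6720489N17Rik (0.993), and for Socs5 Itga9 (0.993) and Nfkb2 (0.987). For Socs4 the nearest genes were less close, Gm37186 (0.921) and Gm48139 (0.903), whereas those of Socs6 were Rtraf (0.982) and Impad1 (0.972) and those of Socs7 were Dalrd3 (0.992) and Metap1d (0.992). EV line 2C had the highest EV level of both genes named for Cish, Socs2, Socs3 and Socs6. These members themselves had their highest EV level in that line, so the choice of genes that follow them largely fixed this.

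**Figure D5:**
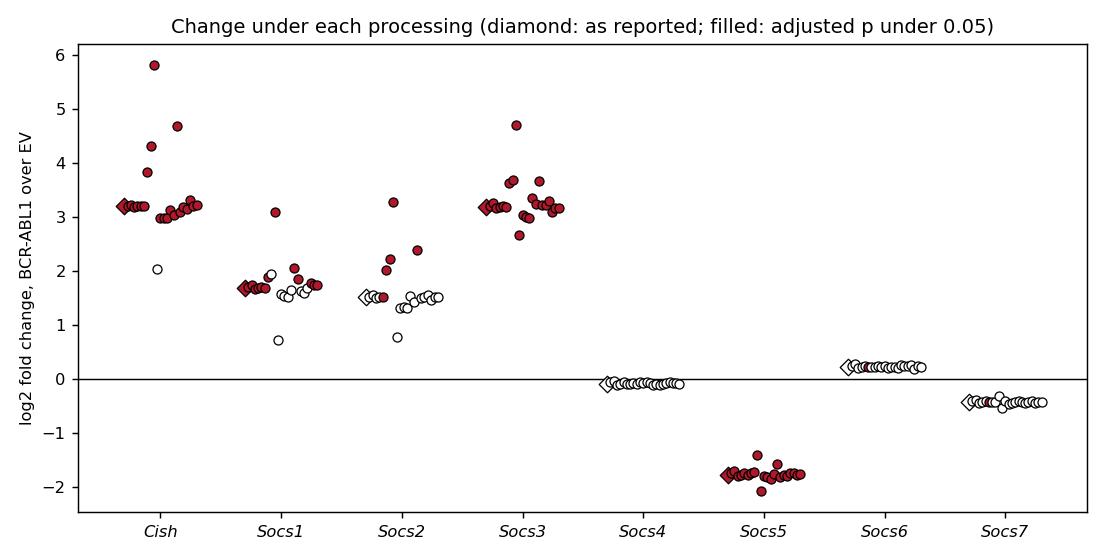
Log2 fold change of BCR-ABL1 over EV lines for each gene as reported (diamond) and under each other processing or omission of a line (circles), filled where the adjusted p was under 0.05. Socs3 and Socs5 are filled throughout, Cish in all but the fit of mouse 2 alone, and Socs1 and Socs2 hold both filled and open points. Socs6 and Socs7 are filled only in the test against no change, and Socs4 is open throughout.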

How the data were processed

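RNA of 12 lines was sequenced by the authors on stranded total RNA libraries. They deposited whole-number counts per gene for 51826 Ensembl identifiers, without normalization or pooling. The submitters' processing notes name Trimmomatic 0.36, TopHat2 2.1.1, Bowtie2 2.3.2 and featureCounts 1.5.3 and the build GRCm38. The annotation release and strand setting are not given in the sources used here. GENCODE M21 (GRCm38) gave symbols, positions and exon lengths and named 51633 identifiers.

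After filterByExpr and TMM scaling, counts were tested in R 4.3.3 with edgeR 4.0.16 by glmTreat against 1.5-fold on the quasi-likelihood fit. The study names glmTreat on a likelihood ratio fit, which was an alternative, as was DESeq2 1.42.0. Mouse contrasts and the interaction used glmQLFTest on a fit of 4 groups (mouse by condition). Standard errors printed with log2 fold changes come from the spread of log2 CPM (prior count 2) between lines. They are those of the difference of mean log2 CPM and not of edgeR's estimate. For Cish, Socs1, Socs2 and Socs3 that difference was larger than edgeR's log2 fold change. The fits were also run on simulated counts, drawn independently for each line and with no mouse difference in the test of condition. That run does not show how the grouping of lines by mouse affects the calls. The depth of 34791011 to 66011225 counts per line gave every member at least 35 counts in every line.

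The members and gene lists were chosen with earlier results of these data known. Named are all 8 members, the called genes of the 4 lists, the JAK and STAT genes, of which 1 is not reported here, and the 2 genes nearest to each member in pattern. The first digit of each line's number was taken as its mouse. Across conditions, the correlation of deviations from group means was 0.0853 to 0.240 within a mouse and -0.203 to -0.0636 across mice. With mouse means taken out, equally numbered lines had correlations between -0.109 and 0.0856. The first digit thus pairs the lines and the letter does not. These values cannot tell a mouse from another source of difference that lines of the same digit share. No pair of replicates agreed within sampling noise (chi-square per degree of freedom between 9.36 and 434). Alternatives were RLE scaling, 2 other filters, a test without the 1.5-fold margin, replicate blocks (mouse or line number), each mouse alone, omission of each line and length by the longest transcript. Plots were drawn with matplotlib 3.10.9.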

Additional observations from a re-analysis of the deposited data

Results flagged for a closer look

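For 8 genes in 2 conditions, 16 groups of 6 lines were examined. In 4 of them 1 line lay farther from the others than Dixon's critical value for 6 values allows. Chance gives about 1 in 20 for independent, normally distributed values. The gaps were taken on CPM, not on log2 CPM, and the lines came from 2 mice, so that share need not hold here. Cish was at 19.0 CPM in EV line 2C, which left a gap of 0.839 of the range of the EV lines. Socs2 was at 379.8 CPM in the same line, with a gap of 0.698 of the range. BCR-ABL1 line 2A had the lowest Socs4 of its condition, 78.5 CPM (gap 0.725), and the highest Socs6, 59.2 CPM (gap 0.679).

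The change from EV to BCR-ABL1 lines, which also differ in IL7, was unequal in the 2 mice, by the interaction term in edgeR, for Cish (-3.78 on the log2 scale, mouse 2 minus mouse 1), Socs1 (-2.36), Socs2 (-2.50) and Socs3 (-2.04).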

How the results depend on the processing

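No log2 fold change of a member changed its sign under any alternative run. Against no change instead of 1.5-fold, 5 members were higher and 2 lower, with 12 and 12 list genes and 3389 and 3897 of all genes. In mouse 1 alone 2512 genes were higher and 1877 lower. In mouse 2 alone 1 member was higher (Cish, adjusted p = 0.297, and Socs1, 0.593, lost their calls), with 4 list genes higher and 2 lower and 408 of all genes lower. Without a filter 2 members, Cish and Socs1, were called between mice within BCR-ABL1 lines. The longest transcript gave family sums of 70.9 (EV) and 139.1 (BCR-ABL1) CPM per kilobase, against 49.7 and 87.6. The causes were not tested.

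Over the 12 omissions of a line, 2 to 4 members were higher and 1 was lower, with 6 to 7 and 4 to 5 list genes and 807 to 1353 and 802 to 1434 of all genes, the highest without EV line 2C. Between the mice, 3 to 6 members had an interaction, 4 to 6 were called within EV and 0 to 1 within BCR-ABL1 lines. With mouse as replicate block (1126 genes higher, 1080 lower) Socs2 was called in addition, and with the line number as replicate block Socs2 was (adjusted p = 0.0493) and Socs1 was not. No other member's call changed with a block. DESeq2 gave no adjusted p for Socs2. The lowest count of a member in a line was 35, and the comparison of mice rests on 2 animals.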
